A study of Arabidopsis thaliana with 6 samples.

Results

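The exocyst genes of Arabidopsis thaliana were followed in RNA sequencing of cells collected as male meiocytes, the anther cells that go through meiosis. The set holds 35 of the 27655 genes in the count tables and was taken by locus identifier: 12 genes for the 7 kinds of core subunit (SEC3, SEC5, SEC6, SEC8, SEC10, SEC15 and EXO84) and 23 genes for the EXO70 subunit, in 8 subfamilies from A to H. The mutant knu-2, which carries an allele of the zinc finger gene KNUCKLES (KNU) whose lesion is not described in the labels, was compared with Ler, the laboratory strain Landsberg erecta, with 3 libraries each. Anthers of stages 4 to 7 were squeezed with forceps and the released cells were collected, and no sort of those cells is named. Each library is labelled a biorep, with no word on separate plants, and the p-values therefore cover the spread among 3 collections per genotype, which may be technical. The genes were chosen by family, but with their values in both genotypes already known, so counts of changed members are given below as a description of the set.

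The exocyst is a complex of 8 kinds of subunit that tethers secretory vesicles to the plasma membrane before they fuse with it. In yeast, SEC3 and EXO70 bind the lipids of the target membrane and SEC15 binds the Rab protein on the vesicle, while the other subunits build the scaffold between them. Yeast has a single EXO70 gene, whereas land plants carry a large EXO70 family whose members serve different membranes, tissues and cargoes. In Arabidopsis the complex works in cell plate formation, in the growth of pollen tubes and root hairs and in the delivery of cell wall material.

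Several members are near copies of each other, which bears on how well their counts can be told apart. SEC3A (AT1G47550) and SEC3B (AT1G47560) lie side by side on chromosome 1, and their coding sequences were identical at 97.4% of 2664 aligned bases. Of the runs of 50 bases within their exons, 17.4% in SEC3A and 26.9% in SEC3B occurred elsewhere in the TAIR10.1 genome, and in the other 33 members none did. The treatment of reads with several matches was not given in the sources used here, so the split between SEC3A and SEC3B is uncertain. The first pair of lines below shows 120 coding bases of SEC3A (chr1:17459105-17459224, plus strand) and SEC3B (chr1:17468322-17468441, plus strand) of TAIR10.1, with the 2 bases that differ in capitals. The second pair shows 120 coding bases of the neighbours EXO70A2 (chr5:21252003-21252122, plus strand) and EXO70A3 (chr5:21255414-21255533, plus strand), which differ at 25 bases, and of which EXO70A3 had no count in any library. The third pair shows the neighbours EXO70H8 (chr2:12290692-12290811, minus strand) and EXO70H5 (chr2:12286362-12286481, minus strand), which differ at 44 bases, and of which EXO70H5 had 4 counts in all. Each stretch was the first whose number of differences equalled the median for its pair.
SEC3A: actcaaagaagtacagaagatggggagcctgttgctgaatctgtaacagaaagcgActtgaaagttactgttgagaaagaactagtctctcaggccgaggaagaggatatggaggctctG
SEC3B: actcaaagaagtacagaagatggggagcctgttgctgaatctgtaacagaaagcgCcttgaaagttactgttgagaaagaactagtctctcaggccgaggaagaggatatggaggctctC
EXO70A2: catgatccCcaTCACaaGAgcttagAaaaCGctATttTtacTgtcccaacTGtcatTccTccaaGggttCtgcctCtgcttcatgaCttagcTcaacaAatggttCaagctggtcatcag
EXO70A3: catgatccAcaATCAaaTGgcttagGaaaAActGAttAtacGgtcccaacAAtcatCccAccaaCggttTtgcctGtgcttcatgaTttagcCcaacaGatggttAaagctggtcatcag
EXO70H8: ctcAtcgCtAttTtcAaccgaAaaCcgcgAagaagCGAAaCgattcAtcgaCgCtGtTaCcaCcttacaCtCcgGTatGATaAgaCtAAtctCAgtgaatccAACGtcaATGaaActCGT
EXO70H5: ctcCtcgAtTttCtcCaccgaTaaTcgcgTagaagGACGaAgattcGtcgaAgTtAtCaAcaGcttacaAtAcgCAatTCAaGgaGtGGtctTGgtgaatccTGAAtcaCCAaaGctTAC

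Library totals were between 18070435 and 23199970 counts in knu-2 and between 19827980 and 27995200 counts in Ler. KNU itself was at 13.8, 7.49 and 4.62 CPM in knu-2 and at 75.1, 68.1 and 87.2 CPM in Ler, so the genotypes did not overlap (edgeR adjusted p = 0.000128). CPM here are counts scaled to the library total and to TMM factors, which were between 1.06 and 1.21 in knu-2 and between 0.870 and 0.914 in Ler. All 18 meiocyte marker genes were measured, and their summed level was 1319 to 2310 CPM in knu-2 and 5449 to 6589 CPM in Ler, with 16 of them called lower and REC8 called higher in knu-2. Of 14 tapetum markers, 10 were measured, 8 were called higher and DYT1 lower, and their summed level was 1778 to 2478 CPM in knu-2 and 380 to 509 CPM in Ler. MS1, CYP703A2 and MS2 were at 0 in every library. The ranges overlapped for 8 pollen markers, at a sum of 8.62 to 54.7 CPM in knu-2 and 19.4 to 60.2 CPM in Ler, and for 7 photosynthesis markers, at 1241 to 2655 CPM in knu-2 and 1458 to 1972 CPM in Ler. The summed meiocyte and tapetum levels thus differed between the same 2 genotypes that are compared for the exocyst genes below. Their part in the exocyst differences was not tested. In pooled cells, fewer cells of a type and less RNA per cell cannot be told apart.

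Most exocyst genes fell in knu-2. Of the 35 genes, 32 passed the filter on low counts, and of these 22 were called lower, 1 higher and 9 neither at an edgeR adjusted p under 0.05. Over all 18422 genes tested, 48.1% were called, 24.4% lower and 23.6% higher. By group, 11 of 12 core genes and 11 of 20 measured EXO70 genes were lower. The median log2 fold change was -1.52 over the core genes and -1.396 over the measured EXO70 genes, against 0.10 over all genes tested. The core genes lay between -2.41 and -0.17, while the EXO70 genes spread from -4.13 to 1.05. All 3 knu-2 libraries lay below all 3 Ler libraries in 24 of the 32 genes and above them in 2, where 29.3% and 29.8% of all genes tested did so. With no scaling beyond library totals, 19 exocyst genes were lower and 3 higher, and the median of all genes was 0.42. The higher share of all calls was then 63.7%, against 49.2% with TMM scaling.

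**Figure D1:**
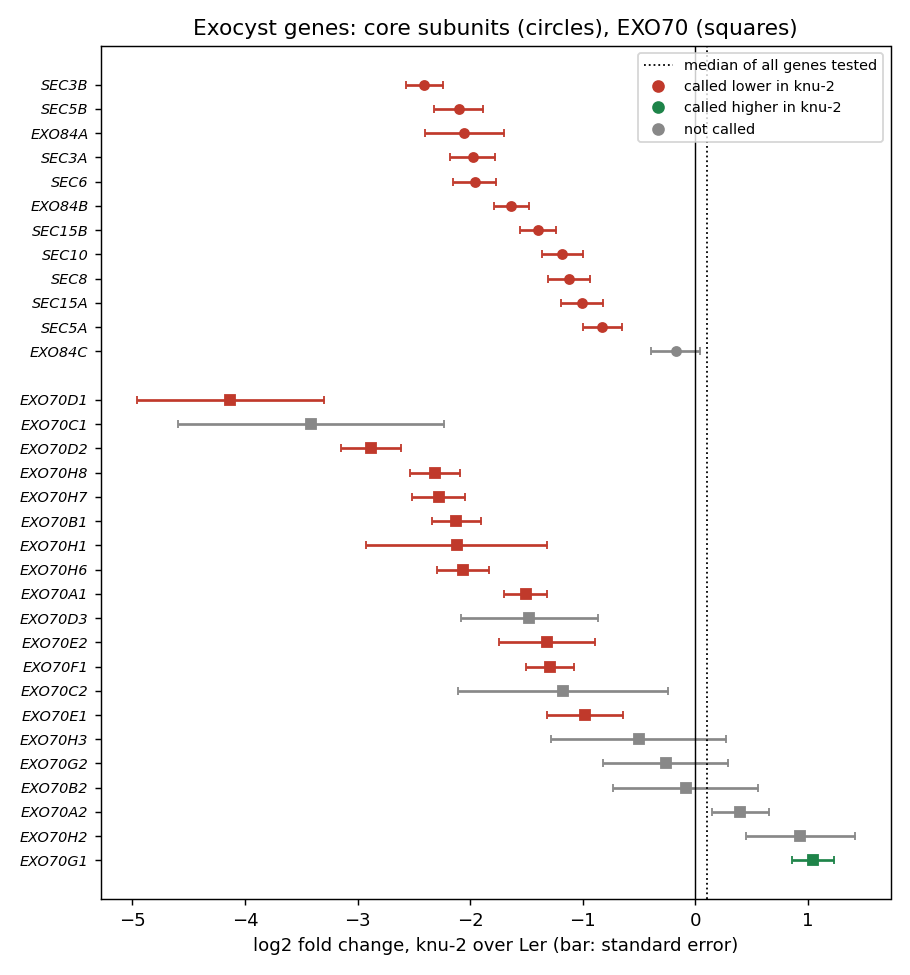
Log2 fold change (horizontal axis, knu-2 over Ler, with standard error bars) of the 32 exocyst genes tested, core subunits as circles above and EXO70 genes as squares below. Red marks genes called lower, green the 1 gene called higher and grey genes not called, and the dotted line is the median of all genes tested, 0.10. All core genes but EXO84C are red, and the EXO70 genes range from -4.13 for EXO70D1 to 1.05 for EXO70G1.

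Among the core subunits, the genes with the highest level in Ler were SEC6 and SEC3A. SEC6 (AT1G71820), a single gene for a scaffold subunit, was at 197, 122 and 162 CPM in knu-2, against 625, 614 and 632 CPM in Ler. SEC3A was at 179, 110 and 139 CPM in knu-2, against 582, 522 and 581 CPM in Ler, and SEC3B at 21.6, 19.3 and 18.3 CPM in knu-2, against 110, 101 and 103 CPM in Ler. No library of knu-2 reached the lowest library of Ler in these 3 genes, which were 3.89-fold, 3.94-fold and 5.30-fold lower, with log2 fold changes of -1.96 (SE 0.19), -1.98 (SE 0.20) and -2.41 (SE 0.16). Their edgeR adjusted p-values were 2.1e-05, 2.2e-05 and 7.56e-06. In Ler, SEC6 reached 199 ± 2.86 CPM per kilobase of gene model, which stood above 96.5% of the genes tested in the same libraries.

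The SEC5 pair fell unequally. SEC5B (AT1G21170) was at 124, 68.3 and 89.1 CPM in knu-2, against 435, 373 and 399 CPM in Ler, and SEC5A (AT1G76850) at 138, 102 and 116 CPM in knu-2, against 234, 188 and 209 CPM in Ler. In both genes every knu-2 library was below every Ler library, but SEC5B was 4.29-fold lower (log2 fold change -2.10, SE 0.22) and SEC5A 1.77-fold lower (-0.83, SE 0.17). The share of SEC5A in the summed SEC5 level per kilobase was 57.3 ± 3.63% in knu-2 and 35.2 ± 0.726% in Ler (SD, n = 3 each), so that SEC5A held the larger share in every knu-2 library and the smaller one in every Ler library. SEC5B shares 466 of its 3777 exon bases with AT1G21160 on the other strand, which was at 53.0, 74.4 and 38.2 CPM in knu-2 and 53.0, 48.7 and 54.4 CPM in Ler and was not called. SEC5A shares 86 exon bases with LSM3B on the other strand, which was called higher (log2 fold change 0.46). It also shares 241 exon bases with AT1G09677, a long noncoding RNA gene on the other strand that has no row in the count tables.

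SEC8, SEC10 and the SEC15 pair fell by 2.01-fold to 2.64-fold. SEC8 (AT3G10380), a scaffold subunit whose mutants fail in pollen tube growth, was at 159, 107 and 141 CPM in knu-2, against 314, 257 and 316 CPM in Ler. SEC10 (AT5G12370) was at 139, 110 and 156 CPM in knu-2, against 334, 265 and 320 CPM in Ler. These genes were 2.17-fold and 2.27-fold lower, without overlap between the genotypes. SEC15B (AT4G02350), a gene for the subunit that meets the Rab protein in yeast, was at 76.5, 68.5 and 84.3 CPM in knu-2, against 215, 183 and 207 CPM in Ler. SEC15A (AT3G56640) was at 53.5, 39.3 and 60.1 CPM in knu-2, against 96.8, 106 and 104 CPM in Ler. SEC15B was 2.64-fold and SEC15A 2.01-fold lower, again without overlap, and the edgeR adjusted p-values of these 4 genes were between 5.11e-05 and 0.000965.

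The EXO84 genes differed from each other. EXO84B (AT5G49830), which is needed for cell plates and is the main gene of the subunit here, was at 65.9, 62.4 and 73.2 CPM in knu-2, against 207, 211 and 206 CPM in Ler, 3.10-fold lower. EXO84A (AT1G10385) was at 8.01, 3.15 and 4.06 CPM in knu-2, against 24.1, 18.8 and 20.1 CPM in Ler, 4.14-fold lower. EXO84C (AT1G10180) was at 18.6, 21.1 and 25.4 CPM in knu-2, against 22.8, 28.6 and 21.9 CPM in Ler, and was the 1 core gene that was not called. Its log2 fold change was -0.17 (SE 0.21, edgeR adjusted p = 0.540), the libraries overlapped, and with no scaling beyond library totals it was 0.14. The share of EXO84C in the EXO84 level per kilobase was 25.9 ± 2.98% in knu-2 and 11.01 ± 1.41% in Ler (SD, n = 3 each).

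**Figure D2:**
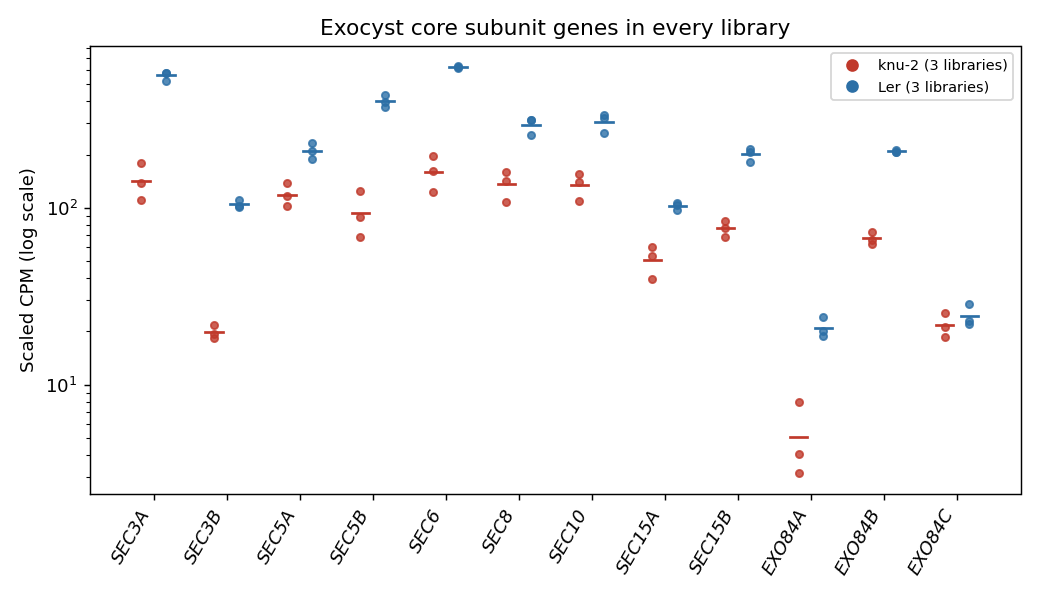
Scaled CPM (vertical axis, log scale) of the 12 core subunit genes in each knu-2 library (red) and each Ler library (blue), with a bar at the mean of each genotype. The red points lie below the blue points in every gene except EXO84C, where they overlap.

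Summed over paralogs, each subunit kind was lower in knu-2. The summed core level was 305 ± 50.8 CPM per kilobase in knu-2 and 899 ± 48.5 CPM per kilobase in Ler, and the summed EXO70 level was 98.3 ± 11.5 CPM per kilobase in knu-2 and 274 ± 3.88 CPM per kilobase in Ler (SD, n = 3 each). The ratios of knu-2 to Ler were 0.339 for the core and 0.358 for EXO70. By subunit kind the ratio ran from 0.241 for SEC3 to 0.46 for SEC8. EXO70 genes therefore made up 24.5 ± 2.31% of the summed exocyst level in knu-2 and 23.4 ± 0.995% in Ler, a difference smaller than the spread between libraries. The EXO70 sum holds genes whose exons lie largely over genes on the other strand. EXO70H6 made up 5.54% of the sum in knu-2 and 8.38% in Ler, and EXO70H7 3.29% and 5.58%. EXO70H2 and EXO70G2 were smaller parts. EXO70G1 was at 14.8 CPM per kilobase in knu-2 and 7.15 CPM per kilobase in Ler. As given below, EXO70G1 cannot be read apart from an overlapping gene. Its higher level in knu-2 raises the EXO70 ratio, and raises the EXO70 share more in knu-2 than in Ler. The ratio and share without it were not computed, so which of core and EXO70 fell further is not read from these values. In Ler the order of the core genes per kilobase was SEC6, SEC3A, then SEC5B and SEC10, whose libraries overlapped, and then SEC8, SEC15B and EXO84B, whose neighbours overlapped too. In knu-2, neighbours in order overlapped among the 9 genes from SEC6 down to SEC15A, and SEC15A did not overlap the next gene, EXO84C. Genes further apart did not all overlap: every knu-2 library of SEC6 was above every one of SEC5A, SEC15B, SEC5B, EXO84B and SEC15A.

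In the EXO70 family the A subfamily held the largest share of the level in both genotypes. EXO70A1 (AT5G03540), which acts in cell plate formation, in the stigma and in the root endodermis, was at 98.4, 63.2 and 76.0 CPM in knu-2, against 243, 229 and 203 CPM in Ler, 2.84-fold lower and without overlap. It made up 30.5 ± 3.77% of the EXO70 level per kilobase in knu-2 and 31.2 ± 2.38% in Ler (SD, n = 3 each). EXO70A2 (AT5G52340), which acts in pollen germination, was at 24.9, 16.4 and 17.3 CPM in knu-2, against 13.1, 13.2 and 18.1 CPM in Ler. The genotypes overlapped and EXO70A2 was not called (log2 fold change 0.40, SE 0.25, edgeR adjusted p = 0.219), except when scaled to library totals alone (0.71, adjusted p = 0.0404). EXO70A3 (AT5G52350), its neighbour, had 0 counts in all 6 libraries, where 3 counts, taken here as the upper limit behind a 0, come to 0.119 to 0.166 CPM. EXO70A2 made up 8.75 ± 1.03% of the EXO70 level in knu-2 and 2.398 ± 0.497% in Ler (SD, n = 3 each). Of the 8 subfamilies, only G had a higher summed level, at 15.97 ± 2.23 CPM per kilobase in knu-2 and 8.61 ± 1.34 CPM per kilobase in Ler, while the ratio of knu-2 to Ler in the others ran from 0.114 for D to 0.476 for E. Most of the G level came from EXO70G1, which cannot be read apart from an overlapping gene, as given below.

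The D and C subfamilies had the EXO70 genes with the lowest knu-2 levels relative to Ler. EXO70D1 (AT1G72470) was at 5.36, 0.640 and 0.933 CPM in knu-2, against 35.8, 38.4 and 45.3 CPM in Ler, and EXO70D2 (AT1G54090) at 12.5, 9.32 and 5.76 CPM in knu-2, against 63.0, 72.8 and 66.5 CPM in Ler. The D genes take part in the autophagy of type-A response regulators of cytokinin signalling. Both lay far below Ler in each knu-2 library, by 17.5-fold (log2 fold change -4.13, SE 0.83, edgeR adjusted p = 0.0083) and 7.35-fold (-2.88, SE 0.27, adjusted p = 1.55e-05). Most of the knu-2 counts of EXO70D1, 105 of them, came from replicate 1, against 14 and 23 in the other knu-2 libraries, and without that library its log2 fold change was -5.66, and by limma-voom it was -4.82. EXO70D3 (AT3G14090) was at 1.07, 1.23 and 1.54 CPM in knu-2, against 2.77, 5.30 and 2.65 CPM in Ler, without overlap but not called (-1.47, adjusted p = 0.0665), and DESeq2 called it lower (adjusted p = 0.0358). The D subfamily as a whole held 5.25 ± 1.69% of the EXO70 level in knu-2 and 16.8 ± 1.40% in Ler (SD, n = 3 each).

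EXO70C1 (AT5G13150), which acts in pollen tube growth, was at 3.88, 0 and 1.14 CPM in knu-2, against 16.0, 17.6 and 19.3 CPM in Ler. No knu-2 library came near the Ler range, yet the spread among knu-2 libraries, one of them without a count, left the gene uncalled in the edgeR fit (log2 fold change -3.41, SE 1.18, adjusted p = 0.0606). It was called without knu-2 replicate 1 (-4.91, adjusted p = 0.00483), without knu-2 replicate 2 (-2.83, adjusted p = 0.00118) and by limma-voom (-5.27, adjusted p = 0.00366). EXO70C2 (AT5G13990), its partner gene in pollen tubes, had 21, 11 and 13 counts in knu-2, against 61, 20 and 23 counts in Ler, and was not called. EXO70C2 lies 5256 bases from KNU on chromosome 5.

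The H subfamily ranged from expressed to nearly silent genes. EXO70H6 (AT1G07725) was at 17.9, 10.1 and 12.8 CPM in knu-2, against 49.7, 59.6 and 61.0 CPM in Ler. EXO70H7 (AT5G59730) was at 5.46, 8.27 and 7.99 CPM in knu-2, against 32.3, 37.8 and 35.3 CPM in Ler. EXO70H8 (AT2G28650) was at 8.52, 6.72 and 9.49 CPM in knu-2, against 47.7, 36.8 and 38.4 CPM in Ler. All 3 fell without overlap, by 4.17-fold, 4.85-fold and 4.97-fold, with edgeR adjusted p-values between 1.96e-05 and 4.4e-05. Long noncoding RNA genes on the other strand overlap EXO70H6 by 2288 and EXO70H7 by 2221 exon bases. Without strand, the counts of EXO70H6 and EXO70H7 cannot be told apart from reads of those RNA genes. EXO70H1 (AT3G55150) was at 0.612, 0.228 and 1.26 CPM in knu-2, against 2.07, 3.12 and 4.03 CPM in Ler, from 12, 5 and 31 counts in knu-2 and 47, 79 and 73 counts in Ler. It was called lower (-2.12, SE 0.80, adjusted p = 0.048), but leaving out knu-2 replicate 1, knu-2 replicate 2 or any Ler library ended the call (adjusted p = 0.0721 to 0.191). Without knu-2 replicate 3 the gene stayed called, at -2.87 (adjusted p = 0.0237). It was not called by limma-voom (0.0534), with a replicate block (0.0567) or with library totals only (0.078).

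EXO70H3 (AT3G09530) had 10, 30 and 66 counts in knu-2, against 68, 38 and 36 counts in Ler, with overlap and no call. EXO70H4 (AT3G09520), which builds the thick walls of trichomes and lies next to EXO70H3, had 0 counts in every knu-2 library and 7, 5 and 2 counts in Ler. EXO70H5 (AT2G28640), the neighbour of EXO70H8, had 0 counts in every knu-2 library and 0, 0 and 4 counts in Ler. EXO70H4, EXO70H5 and EXO70A3 were the 3 members left out of the test. In each of the tandem pairs EXO70A2 with EXO70A3 and EXO70H8 with EXO70H5, whose coding sequences were shown above, one gene was measured in all libraries while its neighbour was at or near 0.

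The B, E and F genes fell, with 1 exception. EXO70B1 (AT5G58430), known in autophagy and immunity, was at 10.9, 7.31 and 10.4 CPM in knu-2, against 43.9, 41.3 and 39.6 CPM in Ler, 4.35-fold lower. EXO70F1 (AT5G50380) was at 36.2, 40.5 and 24.3 CPM in knu-2, against 94.4, 77.9 and 75.03 CPM in Ler, 2.45-fold lower. In both genes the genotypes lay apart, with edgeR adjusted p-values of 2.68e-05 and 0.000453. EXO70B2 (AT1G07000), which acts in immunity, had 27, 58 and 47 counts in knu-2, against 38, 61 and 40 counts in Ler, and did not pass (-0.084, SE 0.64, adjusted p = 0.930). EXO70E1 (AT3G29400) was at 8.47, 7.22 and 8.56 CPM in knu-2, against 8.79, 16.7 and 22.4 CPM in Ler, and EXO70E2 (AT5G61010), a marker of a secretory organelle of its own, at 2.60, 4.89 and 2.51 CPM in knu-2, against 10.6, 8.81 and 5.53 CPM in Ler. The E genes were called lower (-0.98, adjusted p = 0.0329, and -1.32, adjusted p = 0.0243), but their nearest libraries almost met. EXO70E1 was not called without knu-2 replicate 2 or 3 or Ler replicate 2 or 3 (adjusted p = 0.0628 to 0.176), by limma-voom (0.066) or with library totals only (0.134). EXO70E2 was not called without knu-2 replicate 1 or 3 or Ler replicate 1 or 2 (adjusted p = 0.0512 to 0.115) or with library totals only (0.0979). It shares 50 exon bases with ECT3 on the other strand, which was called higher (log2 fold change 1.12). ECT3 was at 295, 246 and 337 CPM in knu-2 and 112, 131 and 161 CPM in Ler, and its part in the EXO70E2 counts was not tested.

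EXO70G1 was the 1 member called higher in knu-2. EXO70G1 (AT4G31540) was at 39.2, 51.1 and 46.1 CPM in knu-2, against 20.3, 22.1 and 23.7 CPM in Ler, a log2 fold change of 1.05 (SE 0.18, edgeR adjusted p = 0.000719), and the lowest knu-2 library was above the highest Ler library. Its share of the EXO70 level per kilobase was 15.3 ± 3.47% in knu-2 and 2.61 ± 0.240% in Ler (SD, n = 3 each), and it ranked second of the EXO70 genes in knu-2, overlapping EXO70F1, and ninth in Ler. The gene cannot be read alone, however: 3006 of its 3080 exon bases lie inside an exon of AT4G31530 on the other strand. AT4G31530 was at 50.8, 76.0 and 62.5 CPM in knu-2, against 32.0, 31.5 and 36.9 CPM in Ler, and was called higher as well (log2 fold change 0.92, SE 0.19, adjusted p = 0.00211). In all 6 libraries EXO70G1 had fewer counts than AT4G31530.

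EXO70H2 overlaps another gene in the same way. EXO70H2 (AT2G39380) had 107, 100 and 80 counts in knu-2, against 59, 51 and 42 counts in Ler, and AT2G39375, which covers 1984 of its 2078 exon bases on the other strand, had exactly the same count in all 6 libraries. The tables thus hold a single series of values for both genes, and without strand the values of EXO70H2 and EXO70G1 cannot be told apart from those of AT2G39375 and AT4G31530. EXO70H2 lay above Ler in every knu-2 library but was not called (log2 fold change 0.93, SE 0.48, adjusted p = 0.133), except with library totals only (1.26, adjusted p = 0.0488). EXO70G2 (AT1G51640), the other G gene, had 46, 84 and 73 counts in knu-2, against 62, 53 and 112 counts in Ler, with no call. EXO70G2, EXO70H6 and EXO70H7 overlap long noncoding RNA genes on the other strand by 2092, 2288 and 2221 exon bases, and those RNA genes have no row in the count tables. Without strand, the counts of these EXO70 genes cannot be told apart from reads of the RNA genes either.

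**Figure D3:**
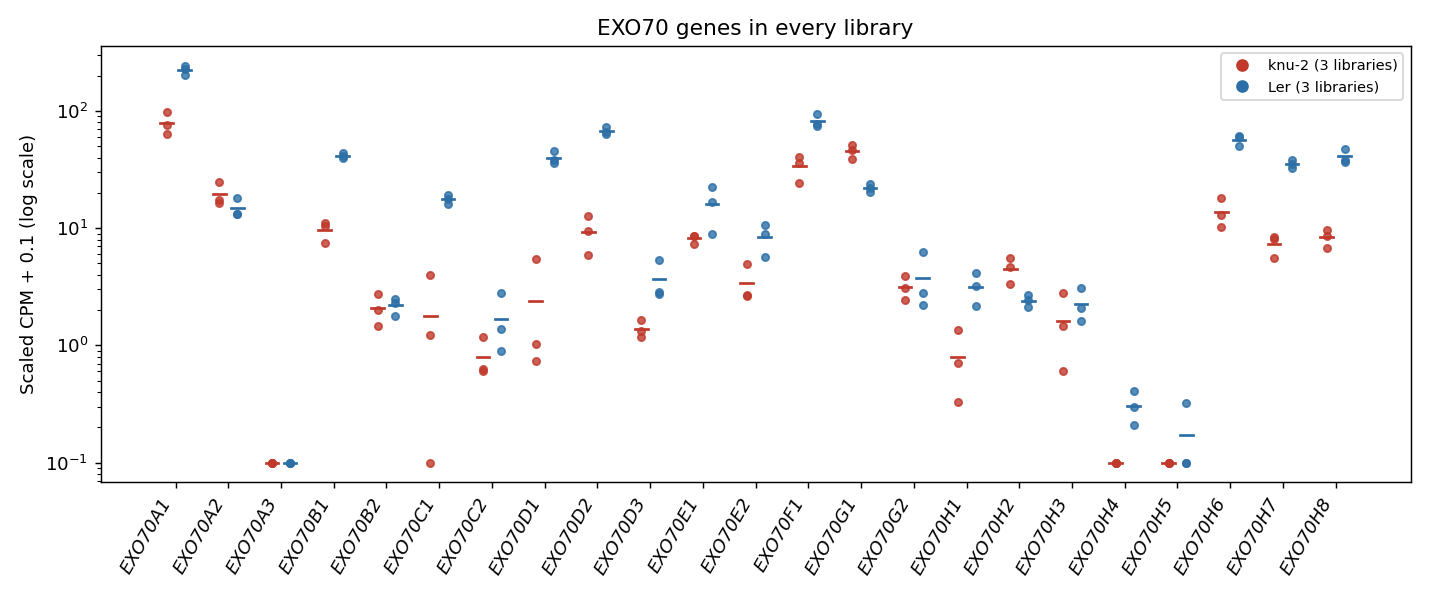
Scaled CPM plus 0.1 (vertical axis, log scale) of the 23 EXO70 genes in each knu-2 library (red) and each Ler library (blue), with a bar at the mean of each genotype. Points at the bottom are counts of 0. EXO70G1 and EXO70H2 are the genes whose red points all lie above the blue ones, and EXO70A3 is at 0 in all 6 libraries.

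**Figure D4:**
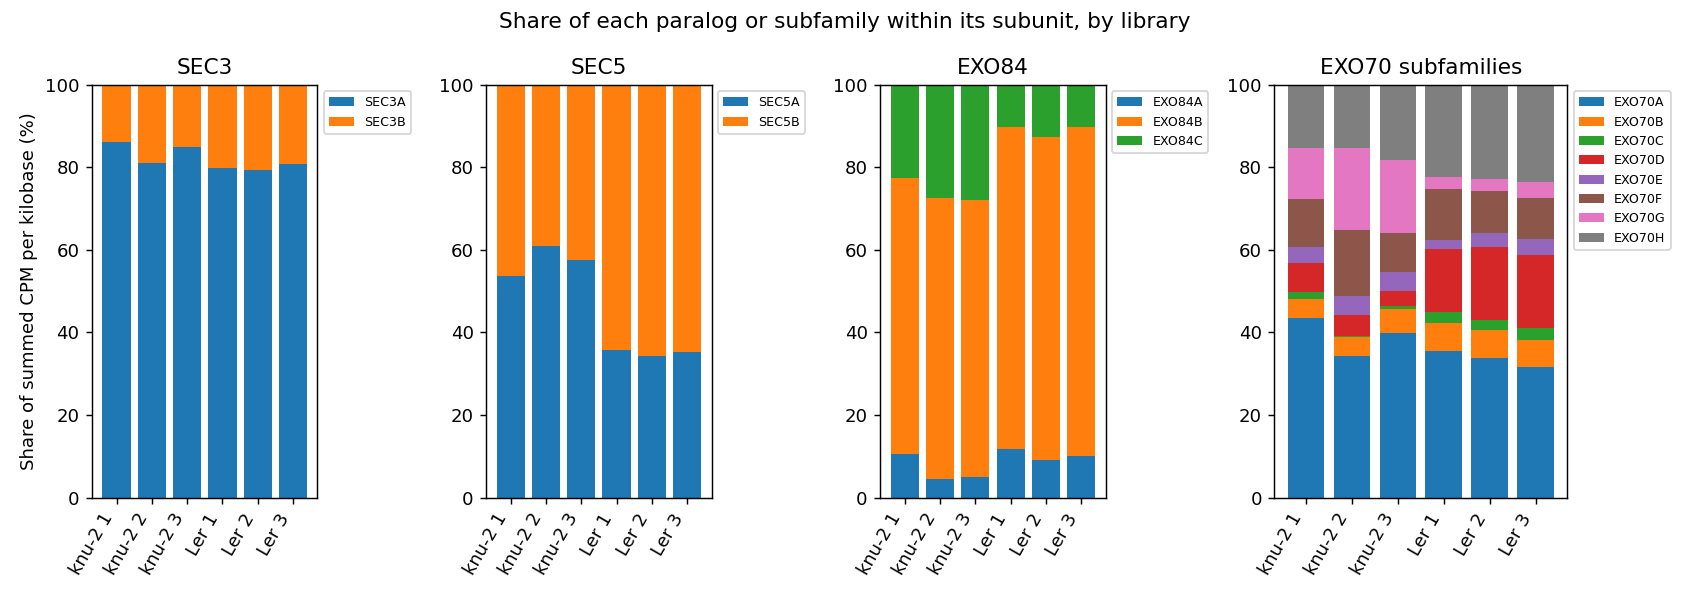
Share (vertical axis, percent of summed CPM per kilobase) of each paralog in SEC3, SEC5 and EXO84 and of each EXO70 subfamily, in the 3 knu-2 libraries (left) and the 3 Ler libraries (right). SEC5A, EXO84C and the EXO70G subfamily take a larger share in every knu-2 library, and the EXO70D subfamily a smaller one.

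The knu-2 libraries differed from each other in a way that many members shared. Of the 22 genes called lower, knu-2 replicate 1 was the highest of the knu-2 libraries in 12 and replicate 2 the lowest in 17. Replicate 1 was the highest in 7 of 11 core and 5 of 11 EXO70 genes. Replicate 2 was the lowest in 10 of the core and 7 of the EXO70 genes. The share of all genes with these orders was not taken, so the orders are not read as particular to the exocyst. The summed meiocyte markers were at 2310 CPM in knu-2 replicate 1, 1319 CPM in replicate 2 and 1540 CPM in replicate 3, and the summed core genes at 1180, 834 and 1068 CPM. The summed EXO70 genes were at 287, 240 and 237 CPM in these libraries, with replicate 3 the lowest. The tapetum markers ran opposite to the meiocyte markers, at 1778, 2478 and 1900 CPM. The part of either marker list in the spread of the exocyst genes was not tested.

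Upstream sequences were searched for short motifs that are known from cell cycle and growth genes. In the 250 bases before the gene start of TAIR10.1, on both strands, the E2F motifs TTTGGCGC and TTTCCCGC were in 0 of 12 core and 0 of 23 EXO70 windows, against 0.958% of 27443 genes. The mitotic activator core AACGG was in 3 core and 4 EXO70 windows, against 20.6% of all genes, and the site II element TGGGCC in 1 and 2, against 13.7%. TATAAA was in 4 core and 10 EXO70 windows (33.3% and 43.5%), against 47.3% of all genes. These are descriptions of letters in these windows and not sites. The windows of SEC6 (chr1:27009314-27009563, plus strand), the core gene with the highest level in Ler, and of EXO70D1 (chr1:27283378-27283627, plus strand) and EXO70D2 (chr1:20189222-20189471, plus strand), which fell furthest among the called EXO70 genes, are shown with TATAAA or its reverse complement in capitals.
SEC6: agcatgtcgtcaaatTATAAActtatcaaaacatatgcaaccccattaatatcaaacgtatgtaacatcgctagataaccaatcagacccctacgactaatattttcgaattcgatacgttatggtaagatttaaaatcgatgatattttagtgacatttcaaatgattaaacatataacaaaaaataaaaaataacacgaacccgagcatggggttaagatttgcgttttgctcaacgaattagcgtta
EXO70D1: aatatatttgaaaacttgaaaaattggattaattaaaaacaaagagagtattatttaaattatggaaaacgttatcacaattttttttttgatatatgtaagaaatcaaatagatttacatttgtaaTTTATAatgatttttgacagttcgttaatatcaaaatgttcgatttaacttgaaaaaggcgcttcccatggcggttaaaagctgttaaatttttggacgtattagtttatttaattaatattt
EXO70D2: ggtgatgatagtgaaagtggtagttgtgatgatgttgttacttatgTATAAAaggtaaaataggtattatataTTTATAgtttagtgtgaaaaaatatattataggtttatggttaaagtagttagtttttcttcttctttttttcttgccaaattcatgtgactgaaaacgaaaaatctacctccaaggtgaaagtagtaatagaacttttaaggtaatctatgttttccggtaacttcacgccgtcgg

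The exocyst was set beside other genes of vesicle traffic, in lists fixed by name with results for other genes of these libraries already known. Of 12 genes of COG and GARP, the tethering complexes of the Golgi that share an ancestry with the exocyst, 10 fell and none rose, with a median log2 fold change of -1.33. Over all genes tested, 24.4% were called lower and 23.6% higher, with a median of 0.10. COG8 (-1.59, SE 0.18), COG6 (-1.59, SE 0.20) and COG7 (-1.35, SE 0.17) had the smallest p-values of the COG and GARP genes. Of 4 genes of TRAPP, a tethering complex that works with the exocyst at the cell plate, TRS130 (-1.82, SE 0.20) and TRS33 (-1.25, SE 0.23) fell, BET3 rose (0.398, SE 0.15) and TRS120 was not called, at a median of -0.75.

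Genes for proteins that act with the exocyst at the plasma membrane were called in both directions, as were all genes tested, of which 24.4% were called lower and 23.6% higher. Of 21 measured genes for SNARE proteins, which fuse vesicle and target membrane, and for their SEC1 partners, 8 fell and 4 rose, with a median of -0.57. The vesicle SNARE gene VAMP725 (-2.79, SE 0.21) and the plasma membrane syntaxin gene SYP121 (-2.65, SE 0.25) fell and VAMP724 rose (1.63, SE 0.20). Of 18 measured genes for RABE proteins, the plant relatives of the Rab that recruits the exocyst in yeast, for ROP switches and for their ICR partners, 7 rose and 5 fell, with a median of 0.377. ROP11 rose (1.43, SE 0.18), and RABE1A (-1.56, SE 0.20) and RABE1C (-1.12, SE 0.17) fell. No test compared these lists with the exocyst, so the differences in their counts and medians are descriptions.

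**Figure D5:**
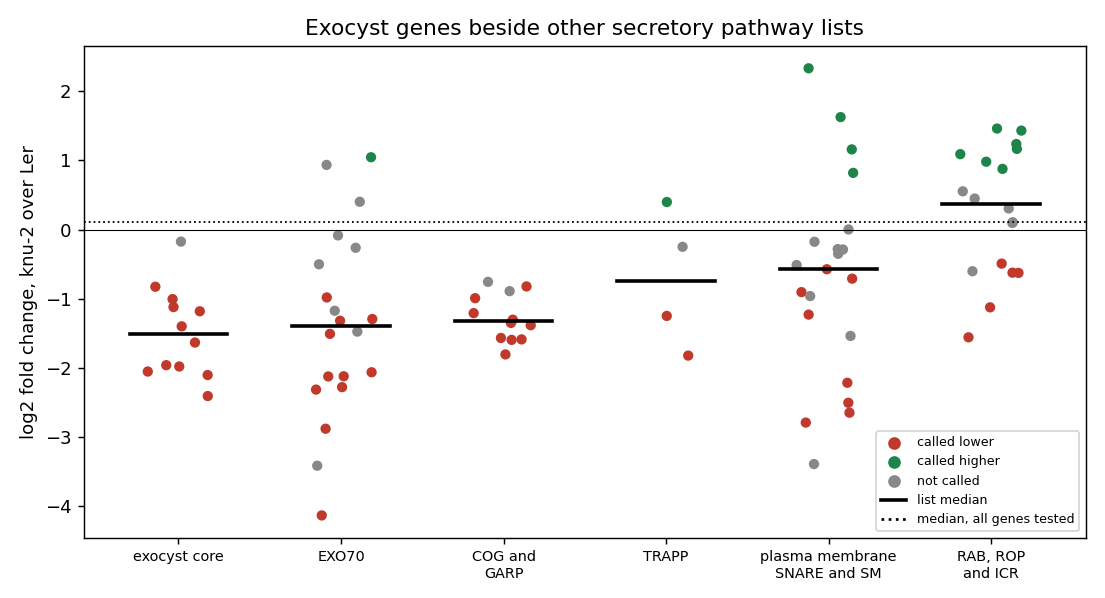
Log2 fold change (vertical axis, knu-2 over Ler) of each gene tested in the exocyst core, the EXO70 family and 4 other lists of vesicle traffic, with red for called lower, green for called higher and grey for not called. Black bars are list medians, from -1.52 for the core to 0.377 for RAB, ROP and ICR genes, and the dotted line is the median of all genes tested.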

How the data were processed

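Messenger RNA was bound to oligo-T beads, fragmented and copied with random hexamers, and no strand-marking step is named, per the labels' protocols. The authors deposited 1 whole-number count per gene and library without normalization, as judged from the values, with the gene length in base pairs beside it. The aligner, counter and build were not given in the sources used here. No pair of libraries agreed within sampling noise. Of the gene identifiers, 27445 were found in the RefSeq annotation of TAIR10.1, and 99.4% of these had the same merged exon length there, as had 33 of the 35 exocyst genes (not EXO70G2 and EXO70H7). Coordinates and sequences are those of TAIR10.1.

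Genes were filtered with filterByExpr, which left 18422, and scaled with TMM. All 6 libraries entered a quasi-likelihood fit (robust) on genotype alone in edgeR 4.0.16 (R 4.3.3), with Benjamini-Hochberg adjustment over all genes tested. The fits were also run on simulated counts in which few genes changed. That run does not test them at the large share of calls seen here. Standard errors were taken from the test statistic. limma 3.58.1 and DESeq2 1.42.0 were alternatives, as were other scalings, other filters, a replicate block and leaving out each library. Coding sequences were aligned with Biopython 1.88.

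The members and the lists were chosen with earlier results of these data known. Every member was named. Per-library CPM are given for members that were called or averaged 10 CPM in a genotype, with counts or CPM for the others, and from each other list the 3 genes with the smallest p.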

Additional observations from a re-analysis of the deposited data

How the results depend on the processing

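Of the 32 exocyst genes tested, 22 kept their direction and their side of the threshold under all 13 alternatives that gave them a value, and 20 of these were among the 23 called. Leaving out each library in turn gave 19 to 21 genes lower and 1 higher, 7284 to 8714 calls over all genes, and medians of -1.59 to -1.45 for the core and -1.58 to -1.34 for EXO70. Scaled to library totals alone, 3 exocyst genes were higher, the medians were -1.20 for the core and -1.06 for EXO70, and the ratios of summed level in knu-2 to Ler were 0.420 for the core and 0.446 for EXO70. With that scaling EXO84C (0.14), EXO70B2 (0.25) and EXO70G2 (0.063) changed sign. EXO70B2 also did so without knu-2 replicate 1 (0.094) or Ler replicate 2 (0.021), in a range of -0.35 to 0.094 over the libraries left out, and EXO70G2 without Ler replicate 3, in a range of -0.55 to 0.31. None of these 3 genes was called. The EXO70 median was -1.52 with no filter on low counts and -1.97 at an average of 5 CPM or more, where fewer genes were tested. The cause of the other shifts was not tested. With a replicate block 21 genes were lower and 1 higher, with EXO70H1 the call that was lost. Deviations of libraries with the same number correlated at -0.12, 0.09 and 0.05, so the numbers were not taken as pairs. At low depth, EXO70C2, with 11 to 61 counts a library, had a standard error of 0.93 and EXO70H2, with 42 to 107, one of 0.48, and the part of depth in these errors was not tested.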
